A study of Mus musculus with 12 samples.

Results

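Tubular injury markers, 10 genes whose RNA rises in damaged or incompletely repaired kidney tubules, were read in the kidneys of 12 mice. The genes were Havcr1, Lcn2, Spp1, Clu, Vcam1, Sox9, Cd44, Krt18, Krt19 and Krt20, chosen by name as known markers. Each name matched 1 row of a count table of 57490 genes, and all 10 were among the 17431 genes with enough counts to be tested. The series asked which kidney transcripts change in diabetic nephropathy and what a herbal water extract, Yiqi Huoxue Yangyin decoction (YHY), does to them.

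Ctrl mice were male db/m mice, heterozygous on the BKS background, Model mice were male diabetic animals of the strain BKS. Cg-Dock7m +/+ Leprdb/JNju, written db/db, and YHY mice were db/db animals that received YHY. The db/db genotype removes the long form of the receptor for leptin, which leads to obesity and diabetes, and both genotypes were admitted to the study by their blood glucose. Over 4 weeks of daily gavage the YHY mice received the extract at 6.24 g/mL and the other groups the same volume of purified water, and kidneys were taken at 13 weeks of age from 4 mice of each group. The labels call the sample kidney, whole tissue, whereas the series description calls it renal cortex. RNA was enriched for polyadenylated transcripts before sequencing.

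Injured tubule cells lose parts of their transport programme and switch on genes for shed or secreted proteins, for adhesion and for a simpler epithelial skeleton. Some of these proteins are measured in urine as signs of kidney damage. Several of the same genes are also active in healthy collecting duct, thin limb or urothelium, so their level in a piece of kidney depends on which segments it holds as well as on injury.

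Total counts ranged from 24415658 to 33276634 per mouse. The share of counts on the mitochondrial genome averaged 19.5% ± 2.12 for Ctrl mice, 52.2% ± 7.68 for Model mice and 56.8% ± 5.21 for YHY mice (SD, 4 mice per group). The Ctrl values did not overlap with those of Model or YHY (exact permutation test, two-sided, P = 0.0286 for each, the smallest that 4 against 4 mice can give). YHY exceeded Model by 4.63 percentage points, with overlapping mice (exact permutation P = 0.457), and by 0.965 points without Model 1 and 6.86 without Model 2. Ctrl 2 stood apart at 22.7% and YHY 2 at 64.6%, and Model 1 was the lowest of its group at 41.2%. The share of each mouse has a 95% Wilson interval at most 0.0396 percentage points wide, and such intervals cover counting error only. Because this share moved with the groups, levels are given as CPM (counts scaled to a common library size) after TMM scaling, which sets libraries level by their typical gene. Of all genes tested, 3412 rose and 3219 fell in Model relative to Ctrl, but scaling by library size alone gave 1547 higher and 5667 lower, and scaling by the total outside the mitochondrial genome gave 5555 higher and 1609 lower. These scalings moved the median log2 fold change of all genes from 0.038 to -0.394 and to 0.363, so the changes of single genes against Ctrl are relative to that median. For YHY against Ctrl the split was 4547 higher and 4215 lower, against 2365 and 5977, and 7406 and 2140, under the same alternatives (medians 0.102, -0.328 and 0.567). For YHY against Model it was 982 higher and 1329 lower, and 1509 and 830 with the total outside the mitochondrial genome (median 0.164, against 0.022).

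Between Model and Ctrl, 1 of the 10 markers was higher (Cd44) and 2 were lower (Havcr1 and Clu) at an adjusted P under 0.05. Among all genes tested 19.6% were higher and 18.5% lower, so these counts are near the background. Between YHY and Model, 1 marker was higher (Lcn2), beside 5.63% of all genes, and 0 were lower, beside 7.62% of all genes. At an unadjusted P under 0.05 edgeR gave 2 higher and 0 lower (13.9% and 14.7% of all genes). DESeq2 called 1 and 0 after adjustment (8.28% and 9.76% of the genes it tested). Between YHY and Ctrl, 1 marker was higher (Cd44) and 2 lower (Havcr1 and Clu), beside 26.1% and 24.2% of all genes. The median log2 fold change of the markers was -0.157, 0.334 and 0.448 in these comparisons, in that order, beside 0.038, 0.022 and 0.102 for all genes. Havcr1 passed the filter on low counts through its Ctrl mice and Krt20 with few counts, so these counts and medians support nothing by themselves. Between Model and Ctrl, 1 marker lay higher in each Model mouse than in each Ctrl mouse (Cd44) and 1 lower (Havcr1), beside 19.9% and 20.3% of all genes. Between YHY and Model it was 1 higher (Lcn2) and 0 lower, beside 6.83% and 9.28%, and between YHY and Ctrl 0 higher and 2 lower (Havcr1 and Clu), beside 21.9% and 22.7%. The comparisons share mice, so their values are set side by side and not combined.

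**Figure D1:**
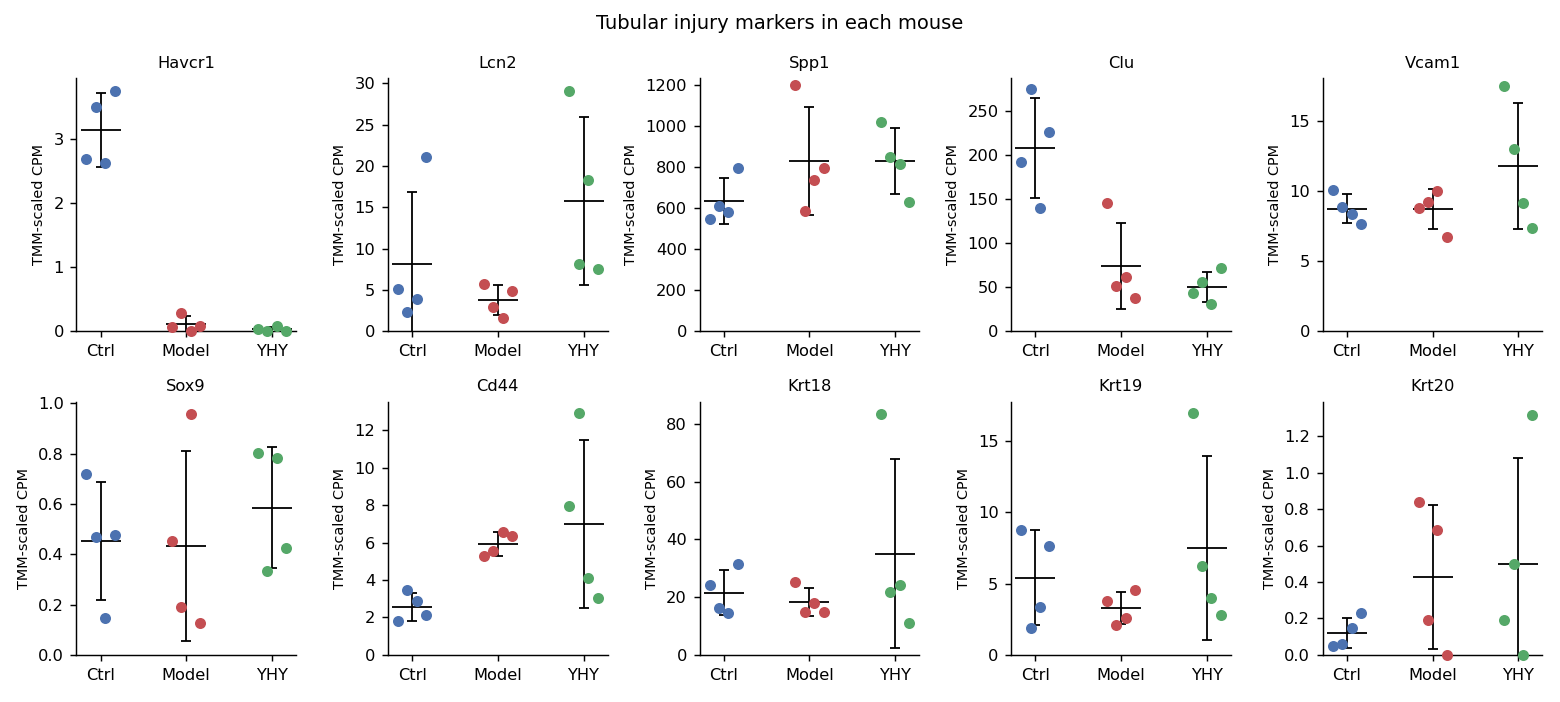
TMM-scaled CPM of each marker (vertical axis, from 0) in 4 mice of each group, with 1 point per mouse, the mean as a black line and the SD as bars that end at 0 where they would pass it. Havcr1 lies at 2.62 to 3.76 CPM in Ctrl and at or below 0.286 CPM in all 8 db/db mice.

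Per length, the most abundant marker was Spp1, at a mean over the 12 mice of 463 FPKM (counts scaled by depth and by gene length), followed by Clu at 32.2, Krt18 at 17.4, Lcn2 at 3.51 and Krt19 at 2.91 FPKM. Vcam1 (1.10 FPKM), Cd44 (0.763), Havcr1 (0.473), Krt20 (0.182) and Sox9 (0.119) were low. In that order, Lcn2 and Krt19, Krt19 and Vcam1, and Krt20 and Sox9 overlapped between mice in every group, as did Clu and Krt18, Vcam1 and Cd44, and Havcr1 and Krt20 in Model and in YHY, and Krt18 and Lcn2 in YHY. The order differed by group. Havcr1 was at 1.36 FPKM in Ctrl, above Vcam1 (0.988) and Cd44 (0.380), and the lowest marker in Model (0.0471) and YHY (0.0122). In YHY Krt18 (24.41) was above Clu (14.6), in Model Krt19 (1.76) above Lcn2 (1.43), and in Ctrl Sox9 (0.1096) above Krt20 (0.0629).

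Havcr1 encodes KIM-1, a membrane protein of the apical proximal tubule that is shed into urine after injury. The gene lies on the plus strand at chr11:46625907-46670405 of the deposited table (ENSMUSG00000040405, build GRCm39 by the submitters' notes, as for the genes that follow). Its counts were 112, 112, 107 and 165 in Ctrl 1 to 4, 2, 6, 0 and 2 in Model 1 to 4, and 1, 0, 2 and 0 in YHY 1 to 4. In CPM these are 2.69, 3.495, 2.62 and 3.76 in Ctrl, 0.0644, 0.286, 0 and 0.0855 in Model, and 0.0382, 0, 0.0744 and 0 in YHY. All 8 db/db mice lay far below every Ctrl mouse, and 7 of them had at most 3 counts, the limit of detection used here. Summed over mice and set against scaled depth, Havcr1 was 30.5 times as high in Ctrl as in Model (95% counting interval 16.4 to 63.9; 496 against 10 counts) and 101 times as high as in YHY (34.4 to 492; 496 against 3 counts). Havcr1 passed the filter on low counts through its Ctrl mice, so its edgeR adjusted P supports nothing beyond these counts. That P was 8.25e-05 for Model against Ctrl and 8.91e-06 for YHY against Ctrl. Between Model and YHY the ratio of 3.32 had an interval of 0.855 to 18.8, so a difference was not detectable at this depth. These intervals pool the mice of a group and cover counting error only, and 6 of the 10 Model counts came from Model 2. The fitted log2 fold change for YHY against Model was -1.65 (adjusted P = 0.28), and -0.692 without Model 2 and -2.58 without YHY 3. Against Ctrl the fitted log2 fold change was -5.82 for Model without Model 2 and -7.42 for YHY without YHY 3. Havcr1 was not tested with at least 10 counts in every mouse, so its calls say nothing on stability. In whole tissue, fewer cells of a kind and less RNA in each cell cannot be told apart.

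The promoter of Havcr1 is shown because it had the largest fold difference among the markers, and those of Lcn2 and Krt18 as the pair with the highest correlation within groups (r = 0.697, 12 mice) among markers with a promoter entry. Of the 45 pairs of markers, 4 correlated more, each with a marker that had no entry. The 3 were picked after the data were seen. RefSeq promoter windows of 300 bases (250 before to 50 after a start, GRCm38.p6, a build other than that of the count table) matched 6 of the 10 markers, with 9 windows in all; Clu, Vcam1, Sox9 and Krt19 had no entry. Each was searched on both strands for the AP-1 motif TGANTCA, the NF-kB consensus, the STAT motif TTCNNNGAA, the TATA box TATAAA, the CCAAT box and the GC box GGGCGG, which 7.81%, 8.46%, 8.30%, 13.6%, 37.4% and 35.7% of all 32851 windows hold. Capitals mark AP-1 in Havcr1, GGGCGG on the other strand in Lcn2 and the NF-kB consensus, which reads on both strands, in Krt18. Apart from that, no match overlapped another in these 3 windows. A match is a description of the letters.
Havcr1, start 3 of 3, chr11:46750918-46751217, plus strand: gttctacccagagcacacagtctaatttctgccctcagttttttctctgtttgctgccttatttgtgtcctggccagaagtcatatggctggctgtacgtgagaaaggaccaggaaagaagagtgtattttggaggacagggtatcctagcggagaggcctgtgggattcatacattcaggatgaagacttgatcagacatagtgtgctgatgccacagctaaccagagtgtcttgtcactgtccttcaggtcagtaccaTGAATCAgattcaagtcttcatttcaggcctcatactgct
Lcn2, chr2:32387690-32387989, minus strand: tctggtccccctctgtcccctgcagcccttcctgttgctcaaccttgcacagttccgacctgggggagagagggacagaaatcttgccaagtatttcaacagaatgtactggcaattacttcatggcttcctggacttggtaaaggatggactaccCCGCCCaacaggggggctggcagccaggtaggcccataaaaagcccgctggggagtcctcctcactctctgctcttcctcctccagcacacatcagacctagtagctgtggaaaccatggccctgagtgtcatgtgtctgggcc
Krt18, chr15:102027966-102028265, plus strand: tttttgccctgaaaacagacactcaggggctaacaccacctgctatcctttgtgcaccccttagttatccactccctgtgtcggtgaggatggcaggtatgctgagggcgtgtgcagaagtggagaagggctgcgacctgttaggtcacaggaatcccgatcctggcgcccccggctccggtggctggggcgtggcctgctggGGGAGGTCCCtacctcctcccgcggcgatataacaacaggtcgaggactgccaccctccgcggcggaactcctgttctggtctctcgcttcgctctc
The TGAATCA match of Havcr1 covers bases 261 to 267 of its window, after the start. The other Havcr1 windows held 0 matches to the 6 motifs.

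Clu encodes clusterin, a secreted chaperone that tubules release when stressed (ENSMUSG00000022037, chr14:66205932-66218996, plus strand). Its level was 191.8, 274.2, 140.0 and 226.1 CPM in Ctrl 1 to 4, 145.9, 51.4, 61.3 and 37.6 CPM in Model 1 to 4, and 42.9, 55.5, 30.6 and 71.2 CPM in YHY 1 to 4. Model 1 lay just above the lowest Ctrl mouse, and the other 7 db/db mice lay below all Ctrl mice. The log2 fold change was -1.49 ± 0.361 (SE; adjusted P = 0.00424) for Model against Ctrl and -2.06 ± 0.368 (adjusted P = 0.000251) for YHY against Ctrl. Without Model 1 the first became -2.11. YHY against Model gave -0.567 ± 0.356 (adjusted P = 0.314), and -0.009 without Model 1.

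Beside Havcr1 and Clu, the summed level of 15 proximal tubule markers averaged 59170 ± 18600 CPM for Ctrl, 18080 ± 3310 for Model and 13790 ± 5560 for YHY (SD, 4 mice per group). By mouse it was 60920, 78130, 64010 and 33630 CPM in Ctrl, 21590, 15950, 20130 and 14650 in Model, and 9985, 17210, 8214 and 19740 in YHY. Every db/db mouse lay below every Ctrl mouse (exact permutation P = 0.0286, adjusted over 39 tests 0.247). Kap, an androgen-dependent transcript and the most abundant per length of the list, made up 70.3%, 27.7% and 28.8% of the sum in Ctrl, Model and YHY. Of the 15 genes, all tested, 1 rose and 6 fell in Model relative to Ctrl, 1 rose and 10 fell in YHY relative to Ctrl, and 0 rose and 3 fell in YHY relative to Model (edgeR; 0 and 6 at an unadjusted P under 0.05, and 6 called by DESeq2). Of all genes 19.6% and 18.5%, 26.1% and 24.2%, and 5.63% and 7.62% were called in these comparisons. For YHY against Model 13.9% and 14.7% of all genes passed unadjusted, and DESeq2 called 8.28% and 9.76% of the genes it tested. Relative to Ctrl, Kap had a log2 fold change of -3.06 ± 0.408 (SE) in Model, the amino acid carrier Slc7a13 -2.33 ± 0.286 and the organic anion carrier Slc22a8 1.13 ± 0.354. Within groups, deviations of Clu and of this sum correlated with Pearson r = 0.546 and Spearman rho = 0.650 (12 mice), and those of Havcr1 with r = -0.49 and rho = -0.406. Without Ctrl 4 and YHY 3, the mice farthest from the median of the sum, these r were 0.664 and -0.267. Havcr1 had at most 6 counts in each db/db mouse, so little can be read from its r. Clu and the summed level of 6 podocyte markers gave r = 0.788 and rho = 0.762, with Model 1 the highest Model mouse in both. Without Model 1 and YHY 4 that r was 0.477. Whether Clu followed this list or the proximal tubule list more closely thus depends on single mice. Against intercalated cell markers Clu gave r = 0.588, and 0.489 without Ctrl 4 and Model 4. The part of these cells and of the mitochondrial share in the Havcr1 and Clu results was not tested.

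**Figure D2:**
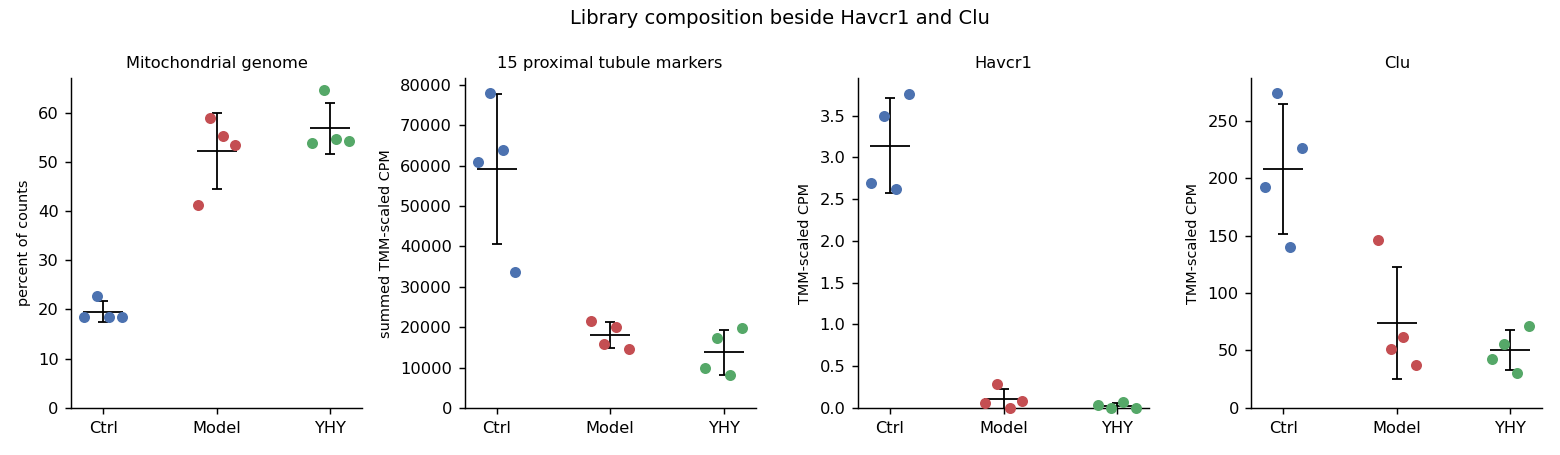
Percent of counts on the mitochondrial genome, summed TMM-scaled CPM of 15 proximal tubule markers, and TMM-scaled CPM of Havcr1 and Clu (vertical axes, from 0) for each mouse, with mean and SD in black. In every panel but that of Clu, the 4 Ctrl mice lie apart from the 8 db/db mice.

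Lcn2 encodes NGAL, an iron-carrier-binding protein secreted by injured distal tubule and by neutrophils (ENSMUSG00000026822, chr2:32274645-32278264, minus strand). It stood at 5.07, 2.28, 3.92 and 21.1 CPM in Ctrl 1 to 4, at 5.67, 2.91, 1.64 and 4.83 CPM in Model 1 to 4, and at 29.1, 8.18, 18.4 and 7.56 CPM in YHY 1 to 4. Every YHY mouse lay above every Model mouse, while Ctrl 4 lay far above the other Ctrl mice and inside the YHY range. YHY against Model gave a log2 fold change of 2.06 ± 0.619 (SE; adjusted P = 0.0381). This call was lost when any of Model 1, Model 2, Model 3, Model 4, YHY 1 or YHY 3 was left out, with adjusted P of 0.0575, 0.0913, 0.116, 0.065, 0.11 and 0.0681 in that order, and with scaling by library size alone (0.0628). For YHY against Ctrl it was 0.964 ± 0.589 (adjusted P = 0.186), and 2.03 without Ctrl 4 (adjusted P = 0.00417). For Model against Ctrl it was -1.10 ± 0.607 (adjusted P = 0.167), and -0.037 without Ctrl 4. The 7 neutrophil markers summed to 9.05 ± 6.67, 9.75 ± 2.12 and 10.2 ± 7.65 CPM for Ctrl, Model and YHY (SD, 4 mice per group). Over the 12 mice S100a8 was the most abundant per length, but in Ctrl S100a9 stood above it (6.48 against 3.26 FPKM). Ly6g had no more than 2 counts in a mouse. By mouse the sum was 8.09, 5.835, 3.60 and 18.7 CPM in Ctrl, 10.6, 8.38, 7.67 and 12.3 in Model, and 17.2, 16.4, 3.57 and 3.53 in YHY, so that Ctrl 4 and YHY 1 were highest here as for Lcn2. Within groups r was 0.568 and rho 0.643 (12 mice), and r was 0.121 without those 2 mice. Their part in the Lcn2 level was not tested.

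Spp1 encodes osteopontin, a secreted integrin ligand made by thick limb, distal nephron and injured tubule (ENSMUSG00000029304, chr5:104582984-104588916, plus strand). It was 546.4, 608.5, 580.0 and 796.1 CPM in Ctrl, 1198, 586.4, 735.9 and 796.6 in Model, and 1019, 851.2, 816.3 and 630.0 in YHY. The groups overlapped, with Model 1 the highest mouse. The log2 fold change was 0.39 ± 0.224 (SE) both for Model and for YHY against Ctrl (adjusted P = 0.183 and 0.159), with the first at 0.102 without Model 1 and 0.523 without Model 2, and 0.00 for YHY against Model with a 95% interval of -0.473 to 0.473. Both contrasts with Ctrl shifted with the scaling as all genes did. With library size alone they were -0.013 and -0.033, and with the total outside the mitochondrial genome 0.695 (adjusted P = 0.0232) and 0.863 (adjusted P = 0.00474). Relative to the median of all genes, Spp1 stayed at 0.352, 0.381 and 0.332 for Model and at 0.288, 0.295 and 0.296 for YHY under TMM and these 2 scalings. Gm42793, a row on the same strand that overlaps Spp1, had at most 23 counts.

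Cd44, a receptor for hyaluronan and osteopontin that marks tubules failing to recover (ENSMUSG00000005087, chr2:102641486-102732010, minus strand), was 1.80, 3.46, 2.89 and 2.14 CPM in Ctrl, 5.28, 5.53, 6.58 and 6.37 in Model, and 7.94, 12.9, 4.09 and 3.06 in YHY. All Model mice exceeded all Ctrl mice, whereas YHY 4 lay within the Ctrl range and YHY 2 above every other mouse. Model exceeded Ctrl by a log2 fold change of 1.21 ± 0.372 (SE; adjusted P = 0.0179) and YHY exceeded Ctrl by 1.44 ± 0.373 (adjusted P = 0.00443). The first call was lost without Ctrl 1 (log2 fold change 1.019, adjusted P = 0.0678), without Ctrl 4 (1.076, 0.056) and with library size alone (0.792, 0.0724). Relative to the median of all genes the latter was 1.186, against 1.17 with TMM. YHY against Model gave 0.232 (95% interval -0.542 to 1.01), and -0.24 without YHY 2. Macrophages also carry Cd44, and 10 of their markers summed to 215 ± 37.8 CPM for Ctrl, 270 ± 57.6 for Model and 352 ± 154 for YHY (SD, 4 mice per group). Lyz2, the most abundant per length, made up on average 40.3%, 53.6% and 56.5% of the sum in Ctrl, Model and YHY. By mouse the sum was 243.6, 165.5, 245.3 and 205.2 CPM in Ctrl, 218.3, 235.6, 278.0 and 347.6 in Model, and 381.4, 556.9, 259.0 and 210.2 in YHY. YHY 2 was highest and YHY 4 low, as for Cd44. Within groups r was 0.736 and rho 0.545 (12 mice), and r fell to 0.253 without YHY 2 and YHY 4, so the relation rests on those mice. With 8 markers of fibroblasts and mural cells r was 0.719 and rho 0.601, and r was 0.233 without the same mice. Relative to Ctrl, Cd14 and Cd68 rose and C1qa, C1qb and C1qc fell in Model, and Pdgfra and Pdgfrb rose in Model and in YHY. The part of these cells in the Cd44 level was not tested.

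Vcam1, an adhesion molecule of activated endothelium and of proximal tubule that fails to repair (ENSMUSG00000027962, chr3:115903598-115923337, minus strand), ranged from 7.67 to 10.1 CPM in Ctrl, 6.71 to 10.1 in Model and 7.40 to 17.5 in YHY. The groups overlapped throughout, with YHY 1 and YHY 2 the highest mice. They were also highest for the summed fibroblast and mural markers (440.9 and 514.3 CPM), with r = 0.806 and rho = 0.790 within groups (12 mice) and r = 0.722 without YHY 2 and YHY 4. The part of these cells in the Vcam1 level was not tested. The log2 fold change was -0.010 for Model against Ctrl (95% interval -0.512 to 0.493), and 0.092 with upper-quartile scaling and 0.313 with the total outside the mitochondrial genome, but -0.048, -0.048 and -0.050 relative to the median of all genes. It was 0.437 ± 0.238 (SE; adjusted P = 0.242) for YHY against Model. For YHY against Ctrl it was 0.427 (adjusted P = 0.145), 0.593 without YHY 4 (adjusted P = 0.0338) and 0.165 without YHY 1 (adjusted P = 0.565). With the total outside the mitochondrial genome it was 0.916 (adjusted P = 0.00599), where the median of all genes was 0.567. Rows that overlap Vcam1 or Cd44 on the other strand had 0 counts in every mouse.

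Sox9, a transcription factor switched on in regenerating tubule cells (ENSMUSG00000000567, chr11:112673050-112678586, plus strand), had 6 to 30 counts in Ctrl, 3 to 21 in Model and 6 to 21 in YHY. Its levels overlapped in every pair of groups. Model against Ctrl gave a log2 fold change of -0.070 (95% interval -1.54 to 1.40), and 0.031 with upper-quartile scaling and 0.223 with the total outside the mitochondrial genome, but -0.108, -0.109 and -0.140 relative to the median of all genes. Differences within that interval were not detectable at this depth.

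Krt18 and Krt19 encode keratins of simple epithelium, which mark the collecting duct in healthy kidney and injured tubules elsewhere (ENSMUSG00000023043, chr15:101936615-101940462, plus strand, and ENSMUSG00000020911, chr11:100031636-100039491, minus strand). Krt18 was 24.3, 16.2, 14.5 and 31.4 CPM in Ctrl 1 to 4, 25.1, 14.9, 18.1 and 14.8 in Model 1 to 4, and 83.4, 21.7, 24.1 and 11.04 in YHY 1 to 4. Krt19 was 8.79, 1.87, 3.36 and 7.63 CPM in Ctrl, 3.80, 2.10, 2.60 and 4.58 in Model, and 16.9, 6.25, 4.02 and 2.79 in YHY. In both, YHY 1 was the highest of all mice and the groups overlapped. YHY against Model gave a log2 fold change of 0.944 ± 0.452 (SE; adjusted P = 0.181) for Krt18 and 1.19 ± 0.536 (adjusted P = 0.153) for Krt19. Without YHY 4 that of Krt18 passed the threshold (1.24, adjusted P = 0.0444), and without YHY 1 it was 0.052, and that of Krt19 0.399. Against Ctrl, YHY gave 0.70 for Krt18 and 0.468 for Krt19, and without YHY 1 -0.194 and -0.329. Without YHY 4 that of Krt18 was 0.994 (adjusted P = 0.0444). Model against Ctrl gave -0.244 for Krt18 and -0.726 for Krt19 (adjusted P = 0.701 and 0.299), and with a mouse left out from -0.498 to -0.054 and from -1.01 to -0.434. With the total outside the mitochondrial genome that of Krt18 was 0.045, but relative to the median of all genes it was -0.282 with TMM and -0.318 there. Krt20, a keratin of urothelium and of injured proximal tubule (ENSMUSG00000035775, chr11:99319229-99328976, minus strand), had at most 34 counts in a mouse, and 0 in Model 4 and YHY 3. Its log2 fold change for Model against Ctrl was 1.78 with a 95% interval of -0.575 to 4.14. That of YHY against Model was 0.205, and -0.203 without Model 4 and -0.033 without Model 2.

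Of 50 keratin genes in the table, the 3 markers included, 11 were tested and 28 had no count in any mouse. Per length, Krt8, the partner of Krt18, was the most abundant, at 58.7 ± 2.69 FPKM for Ctrl, 43.6 ± 13.1 for Model and 42.4 ± 8.84 for YHY (SD, 4 mice per group). Krt7 stood at 16.2, 15.4 and 23.3 FPKM, Krt10 at 3.61, 2.58 and 2.22, Krt23 at 1.37, 0.972 and 2.15 and Krt80 at 0.964, 0.765 and 1.28. The basal keratins Krt5 and Krt14 had at most 108 and 46 counts. Krt15 fell in Model relative to Ctrl (log2 fold change -2.08 ± 0.698, SE, adjusted P = 0.0278), as the 1 keratin past the threshold, with 0 higher in edgeR (0 at an unadjusted P under 0.05, and DESeq2 called 1 in all). Between YHY and Model 0 keratins passed in edgeR, with 6 higher and 0 lower at an unadjusted P under 0.05, and DESeq2 called 2. Between YHY and Ctrl 0 passed in edgeR, with 1 higher and 1 lower unadjusted, and DESeq2 called 1. Of all genes 19.6% and 18.5%, 5.63% and 7.62%, and 26.1% and 24.2% were called in these comparisons, and 24.5% and 22.4%, 13.9% and 14.7%, and 29.4% and 26.6% passed unadjusted. DESeq2 called 18.1% and 16.5%, 8.28% and 9.76%, and 23.4% and 20.3% of the genes it tested. The median log2 fold changes of the keratins were -0.481, 0.944 and 0.522, in that order, beside 0.038, 0.022 and 0.102 for all genes.

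Urothelial markers were among the lists that moved with Lcn2, Krt18 and Krt19. Their summed level was 48.1, 7.61, 28.3 and 49.3 CPM in Ctrl 1 to 4, 18.0, 7.96, 10.5 and 16.0 in Model 1 to 4, and 207.6, 22.6, 46.0 and 6.59 in YHY 1 to 4. YHY 1 was highest here too, and Ctrl 1 and Ctrl 4 were the highest Ctrl mice. Psca made up on average 49.7%, 30.5% and 51.6% of the sum in Ctrl, Model and YHY. Of the 7 genes, all tested, Psca, the most abundant per length, rose in YHY relative to Model (log2 fold change 3.45 ± 1.00, SE, adjusted P = 0.033) and Upk2 in YHY relative to Ctrl (1.88 ± 0.74, adjusted P = 0.045). Between YHY and Model 0 were lower and 3 were higher at an unadjusted P under 0.05, and DESeq2 called 2, Psca (adjusted P = 0.0132) and Krt5 (log2 fold change 2.92 in edgeR, DESeq2 adjusted P = 0.0164). Between YHY and Ctrl 0 were lower and 1 was higher unadjusted, and DESeq2 called 0, with Upk2 at 0.0725. The shares of all genes are those given for the keratins. None of the 7 passed between Model and Ctrl in edgeR, with 0 higher and 1 lower at an unadjusted P under 0.05 and 0 in DESeq2. Deviations from the group means, over 12 mice whose values share a library and its depth, correlated with these markers at Pearson r = 0.759 for Lcn2, 0.889 for Krt18 and 0.891 for Krt19 (Spearman rho 0.874, 0.867 and 0.818). Without YHY 1 and YHY 4, the mice farthest from the median of the sum, r was 0.759, 0.632 and 0.805. Against 9 principal cell markers of the collecting duct r was 0.893, 0.927 and 0.815, and 0.801, 0.878 and 0.654 without Ctrl 4 and YHY 1. Lcn2 also moved with the markers of thin limb and papilla (r = 0.844, and 0.759 without Ctrl 4 and YHY 1), against those of proximal tubule (-0.812, and -0.732 without Ctrl 4 and YHY 3) and with those of parietal epithelium (0.769, and 0.524 without Ctrl 4 and YHY 1). The principal cell markers summed to 1149 ± 485 CPM for Ctrl, 496.9 ± 105 for Model and 562 ± 294 for YHY (SD, 4 mice per group). Aqp2, the most abundant per length, made up on average 54.5%, 57.6% and 40.3% of that sum. Among other lists, Krt18 also moved with endothelial markers (r = 0.812, and 0.706 without Ctrl 2 and YHY 1). Krt19 also moved with neutrophil markers (r = 0.764, and 0.63 without Ctrl 4 and YHY 1). Krt18 and Krt19 moved with the thin limb and papilla markers too (r = 0.759 and 0.75). Without Ctrl 4 and YHY 1 these were 0.469 and 0.525. With endothelial markers Krt19 gave 0.748, and 0.432 without Ctrl 2 and YHY 1. With parietal epithelium markers it gave 0.731, and 0.485 without Ctrl 4 and YHY 1. Krt18 gave 0.708 with lymphocyte markers, and -0.007 without YHY 1 and YHY 4. The part of any of these cells in the levels of Lcn2, Krt18 and Krt19 was not tested.

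**Figure D3:**
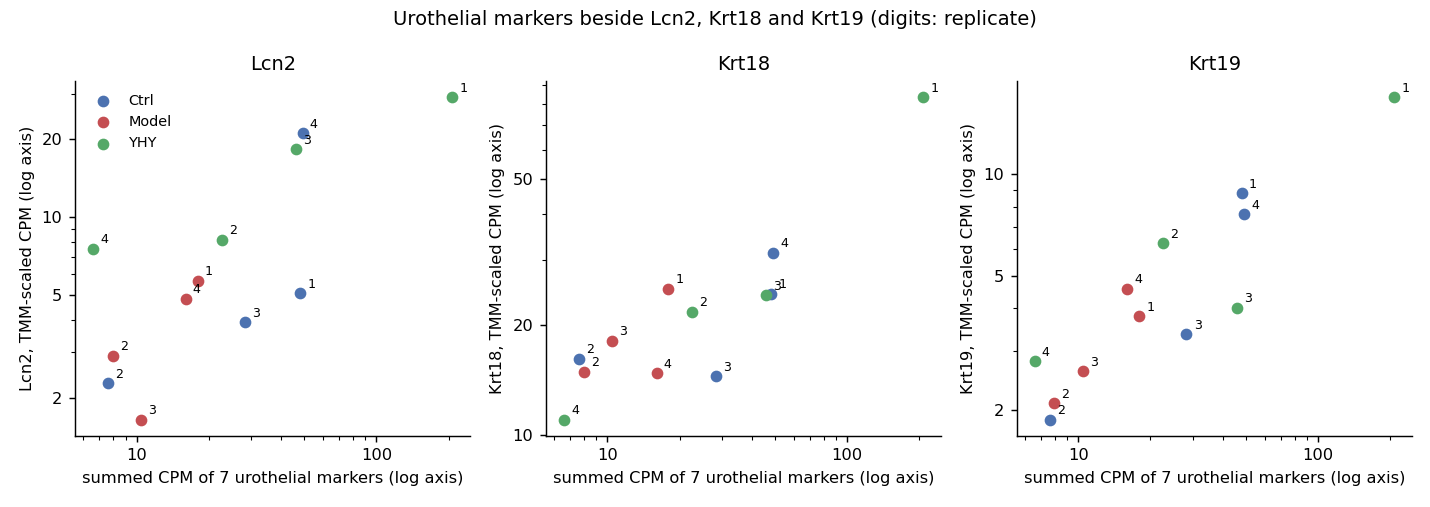
Lcn2, Krt18 and Krt19 in TMM-scaled CPM (vertical log axes) against the summed CPM of 7 urothelial markers (horizontal log axis), with 1 point per mouse and its replicate number. YHY 1, at 207.6 CPM of urothelial markers, is the highest mouse on both axes in each panel.

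Among the markers themselves, deviations from the group means were most alike for Krt18 and Krt19 (r = 0.827, n = 12 mice), then Clu and Krt20 (0.767) and Vcam1 and Krt18 (0.720), as a description over libraries that share their depth. Of 13 lists of cell markers, the one with the largest r within groups, whatever its sign, was principal cells for Lcn2 (0.893), Spp1 (0.749), Sox9 (0.436) and Krt18 (0.927), podocytes for Clu (0.788) and Krt20 (0.871), fibroblasts and mural cells for Vcam1 (0.806), macrophages for Cd44 (0.736), urothelium for Krt19 (0.891) and proximal tubule for Havcr1 (-0.49). Each is the largest of 13 values, so it is high by choice. Havcr1 had at most 6 counts in each db/db mouse, and Sox9 and Krt20 had few counts in every group. Little can therefore be read from r within groups for these markers. Over 12847 other genes with a symbol and a mean of at least 50 counts, the patterns most like each marker across 12 mice were Pxmp2 and Ldhd for Havcr1 (r = 0.980 and 0.978), Anxa11 for Lcn2 (0.950), Lgals3 and Lxn for Spp1 (0.853 and 0.852), and Ctsl and Ebp for Clu (0.971 and 0.969). For Havcr1 this likeness came from the group difference, since r within groups was 0.052 and -0.144. The genes named for each marker were picked as the most alike of 12847, so their r is high by choice too. For Cd44 they were Fgfr1 and Alms1-ps2 (0.970 and 0.965), for Vcam1 Fnbp1 and Ighg1 (0.901 and 0.874), for Sox9 Appl1 and Gm26782 (0.743 and 0.728), for Krt18 Muc1 and Trib1 (0.948 and 0.946), for Krt19 Fam171a2 and Rhpn2 (both 0.923), and for Krt20 Zfp868 and Insr (0.890 and 0.869).

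Other genes of tubular injury and repair, 36 by name with 34 tested, gave 6 higher and 9 lower for Model against Ctrl, 1 higher and 2 lower for YHY against Model, and 10 higher and 8 lower for YHY against Ctrl. Of all genes 19.6% and 18.5%, 5.63% and 7.62%, and 26.1% and 24.2% were called, so most of these counts are near what the background gives. Their median log2 fold changes were 0.049, 0.261 and 0.284, beside 0.038, 0.022 and 0.102 for all genes. The chemokines Cxcl1 (log2 fold change 2.01 ± 0.51), Cxcl2 (1.99 ± 0.375) and Ccl2 (1.44 ± 0.342) were higher in Model than in Ctrl, and the fibrinogen chain Fga (-2.10 ± 0.342), the integrin chain Itgb8 (-1.60 ± 0.268) and Il34 (-1.11 ± 0.226) were lower (SE). Between YHY and Model, Fga was higher (1.31 ± 0.34) and the integrin chain Itgb6 (-0.844 ± 0.165) and Ccn1 (-1.14 ± 0.314) were lower. The cell cycle inhibitor Cdkn1a was higher than in Ctrl both in Model (1.10 ± 0.374) and in YHY (2.09 ± 0.38). Igfbp7 was the most abundant of these per length, at 804 ± 95.3 FPKM for Ctrl, 470 ± 81.2 for Model and 459 ± 132 for YHY (SD, 4 mice per group).

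Partners and relatives of the markers, 22 by name with 18 tested, gave 3 higher and 4 lower for Model against Ctrl. For YHY against Model edgeR gave 0 higher and 1 lower (2 and 3 at an unadjusted P under 0.05), and DESeq2 called 3. For YHY against Ctrl 2 were higher and 4 lower. The called shares of all genes are the same as above. For YHY against Model 13.9% and 14.7% of all genes passed unadjusted, and DESeq2 called 8.28% and 9.76% of the genes it tested. The median log2 fold changes of the partners and relatives were -0.108, 0.099 and 0.156, in that order, and Krt8 was the most abundant per length. Lrp2, the megalin receptor that takes up NGAL, was lower in Model (-1.68 ± 0.295) and in YHY (-2.23 ± 0.30) than in Ctrl, in log2 fold change with its SE. Timd2, of the same gene family as Havcr1, was lower in Model than in Ctrl (-1.92 ± 0.307) and lower again in YHY than in Model (-1.47 ± 0.314, adjusted P = 0.00764). The integrin chain Itgav, which binds osteopontin, was lower in Model (-0.621 ± 0.15), and Itgb7 (1.30 ± 0.337), Itgb5 (0.458 ± 0.121) and the transcription factor Sox4 (0.856 ± 0.172) were higher.

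**Figure D4:**
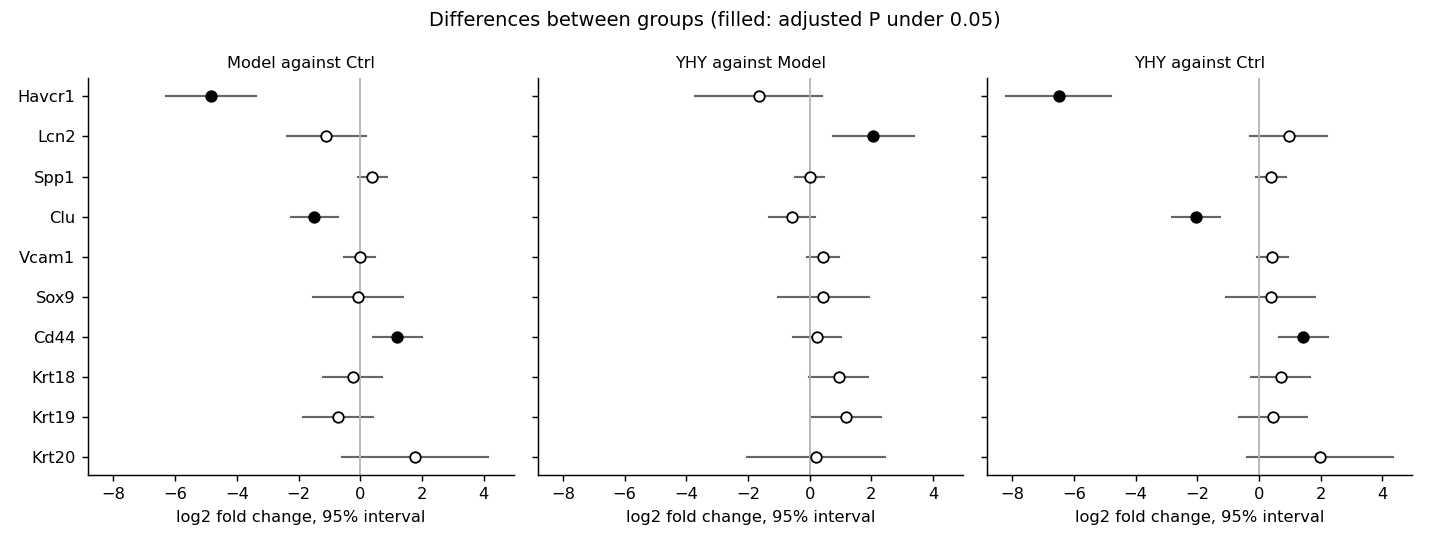
Log2 fold change (horizontal axis) of each marker with its 95% interval in 3 comparisons of 4 against 4 mice, filled where the adjusted P was under 0.05. Havcr1 and Clu lie below 0 and Cd44 above 0 against Ctrl in both db/db groups, and Lcn2 lies above 0 between YHY and Model.

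Markers of other cells were read for what the tissue held, beside the shares of all genes given for the keratins. For Model against Ctrl the numbers higher and lower were 2 and 4 of 10 for thick limb and distal tubule, 1 and 5 of 9 tested for thin limb and papilla, 1 and 4 of 8 tested for principal cells, 1 and 1 of 7 for intercalated cells, and 2 and 3 of 10 for macrophages. For endothelium (8 genes), podocytes (6) and fibroblasts and mural cells (8) 2 were higher and 0 lower, and for parietal epithelium (4) 1 and 0, where at an unadjusted P under 0.05 edgeR gave 0, 0, 0 and 1 lower, and DESeq2 called 2, 2, 2 and 1 in all. Of the neutrophil (5 tested) and lymphocyte (4 tested) genes 0 passed in edgeR, with 0 and 1 at an unadjusted P under 0.05 and 0 in DESeq2.

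For YHY against Model the same lists gave 0 and 1 for thick limb and distal tubule, 2 and 0 for thin limb and papilla, 1 and 1 for intercalated cells and 0 and 1 for parietal epithelium. At an unadjusted P under 0.05 edgeR gave 2 and 2, 5 and 1, 1 and 1, and 2 and 1 for them, and DESeq2 called 4, 5, 2 and 1. For principal cells, macrophages, endothelium, podocytes, fibroblasts and mural cells, neutrophils and lymphocytes edgeR called 0. Unadjusted, it gave 3 and 0, 2 and 0, 1 and 1, 0 and 2, 2 and 0, 0 and 0, and 1 and 0, and DESeq2 called 2, 0, 1, 0, 0, 0 and 0. For YHY against Ctrl the numbers higher and lower were 2 and 5 for thick limb and distal tubule, 1 and 1 for thin limb and papilla, 2 and 3 for principal cells, 1 and 1 for intercalated cells, 4 and 2 for macrophages, 3 and 1 for podocytes and 1 and 1 for parietal epithelium. They were 3 and 0 for endothelium and for fibroblasts and mural cells, 1 and 0 for neutrophils and 0 and 0 for lymphocytes in edgeR, with 3 and 1, 3 and 0, 1 and 0, and 0 and 0 unadjusted, and 3, 3, 1 and 0 in DESeq2. The markers listed for thin limb and papilla summed to 1479 ± 551 CPM for Ctrl, 720.3 ± 123 for Model and 1012 ± 575 for YHY (SD, 4 mice per group). Aqp1, which proximal tubule also makes, was 51.5%, 52.8% and 22.3% of that sum, so the sum does not by itself show papilla. Over 39 tests of summed levels the lowest exact permutation P was 0.0286 and the lowest adjusted P 0.247.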

How the data were processed

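Kidney polyA RNA of 12 mice was sequenced. The counts were used as deposited by the authors, whole numbers of reads per gene without normalization, with gene lengths and coordinates. The submitters' processing notes name FastQC 0.11.9, Trimmomatic 0.39, HISAT2 2.2.1, SAMtools 1.12, featureCounts 2.0.1, DESeq2 1.34.0 and R 4.1.2, and the build GRCm39 (mm39), without saying which step each served. The annotation release and the strand setting of the counting are not given in the sources used here. The authors' comparison and KEGG tables, with 12 columns of values per mouse, were not used.

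Genes were tested with edgeR 4.0.16 (limma 3.58.1) in R 4.3.3: TMM scaling, filterByExpr, and quasi-likelihood tests in 1 fit of 3 groups without covariates, two-sided, with Benjamini-Hochberg adjustment over the genes tested. CPM and FPKM are TMM-scaled, FPKM with the deposited lengths. Shares and sums were compared by exact permutation tests. Correlations used log2 CPM with 0.5 added. The steps were tested on simulated data. Plots used matplotlib 3.10.9, numpy 2.4.6 and pandas 2.3.3 under Python 3.11.15, and other steps DESeq2 1.42.0 and version 1.17.8 of data.table.

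The alternatives were DESeq2, upper-quartile scaling, library size alone, the total outside the mitochondrial genome, no filter, at least 10 counts in every mouse, only the 8 mice compared, a replicate block, each mouse left out, Ctrl 2, Model 1 and YHY 4 left out together, and the paper's limits of a 1.2-fold change and an unadjusted P under 0.05.

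The markers and all lists were chosen with earlier results of these data known. Named genes are the 10 markers, from each list up to 3 genes in each direction and comparison with the largest change past the threshold and the most abundant gene per length, the keratins tested, and for each marker the 2 genes most like it. C1qa, C1qb and C1qc, Cd14 and Cd68 fall under this rule. Ly6g and S100a9 were named after their values were seen. Of the genes most alike to Lcn2 across the mice, 1 is not reported here. Values relative to the median of all genes, and the shares of all genes under each alternative and at the unadjusted threshold, were added after the results were seen.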

Additional observations from a re-analysis of the deposited data

Results flagged for a closer look

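In 7 of 78 groups of 4 mice checked, the highest or lowest mouse lay apart from the next by at least 0.83 of the group's range, Dixon's 95% limit for 4 values, and chance alone gives about 1 in 20. Lcn2 in Ctrl 4 was 21.08 CPM, with the next Ctrl mouse at 5.067 CPM. Ctrl 2 had the highest mitochondrial share of its group (22.71%, next 18.56%), the lowest total (29632718 counts, next 32677732) and the lowest sum of endothelial markers (187.8 CPM, next 243.9). YHY 2 had the highest mitochondrial share of its group (64.6%, next 54.56%). The sum of thick limb and distal tubule markers was 3360 CPM in YHY 3 (next 2361), and that of thin limb and papilla markers 902.5 CPM in Model 4 (next 684.8). The source of these differences was not tested.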

How the results depend on the processing

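Clu kept its direction and call against Ctrl in both db/db groups under each alternative that tested it. Havcr1 passed the filter on low counts through its Ctrl mice, so nothing is drawn from its calls. The cause of the changes below was not tested unless stated. In log2 fold change, Havcr1 ranged from -5.82 to -4.47 (Model) and from -7.42 to -6.11 (YHY) with a mouse left out, and Clu from -2.11 to -1.27 and from -2.28 to -1.88.

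The scalings moved all genes alike, so each value is also given relative to the median of all genes. With library size alone, Spp1 was -0.013 (Model against Ctrl) and -0.033 (YHY against Ctrl), relative to the median 0.381 and 0.295, against 0.352 and 0.288 in the main fit. With the total outside the mitochondrial genome, Model against Ctrl was 0.045 for Krt18, 0.223 for Sox9 and 0.313 for Vcam1, relative to the median -0.318, -0.140 and -0.050, against -0.282, -0.108 and -0.048. Upper-quartile scaling gave 0.031 for Sox9 and 0.092 for Vcam1, relative to the median -0.109 and -0.048. These 4 markers thus kept their side of the median in the comparisons named.

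With library size alone, 0 markers were higher for Model against Ctrl (8.87% of all genes) and 0 for YHY against Model (2.82%), and 1177 genes changed in the latter. With the total outside the mitochondrial genome 2 markers were higher for Model against Ctrl and 4 for YHY against Ctrl, beside 31.9% and 42.5% of all genes. With at least 10 counts in every mouse, Havcr1, Krt20 and Sox9 were not tested, so 1 marker was lower in Model and 1 in YHY against Ctrl (21.3% and 27.7% of all genes), and Vcam1 turned to 0.033 in Model.

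For YHY against Model, 2 markers were higher (13.9% of all genes) and 4988 genes changed by the paper's limits, 3 markers were higher with no filter (3.55%), 2 without Ctrl 2, Model 1 and YHY 4 together (4.94%), and 1385 genes changed with only the 8 mice compared.

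The replicate numbers did not pair the mice: 3 of 12 same-numbered pairs had r over 0.1 (range -0.226 to 0.193), and 4 of 12 mice correlated best with their own number. With the number as a block, Krt20 turned to -0.216 for YHY against Model, and 6289, 1920 and 8424 genes changed for Model against Ctrl, YHY against Model and YHY against Ctrl.

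With each mouse left out in turn, values ranged as follows. For YHY against Model, Cd44 ran from -0.24 to 0.478, Krt20 from -0.203 to 0.624, markers higher from 0 to 2 (2.32% to 5.89% of all genes) and genes changed from 1146 to 2723. For YHY against Ctrl, Krt18 ran from -0.194 to 0.994, Krt19 from -0.329 to 0.762 and markers higher from 1 to 3 (20.9% to 25.3% of all genes). For Model against Ctrl, Sox9 ran from -0.785 to 0.23, Vcam1 from -0.122 to 0.095 and markers higher from 0 to 1 (14.1% to 20.3%). Krt20 was not tested in 2 of these fits, nor without Ctrl 2, Model 1 and YHY 4 together, nor with only the 8 mice compared, where Havcr1 was also not tested for YHY against Model. The mitochondrial difference ran from 30.4 to 36.3 percentage points (Model against Ctrl) and from 34.7 to 38.3 (YHY against Ctrl), both at an exact permutation P of 0.0571, the smallest that 3 against 4 mice allow, and from 0.965 to 6.86 for YHY against Model.

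All results rest on 4 mice per group, whole tissue and 1 library per mouse. Sox9, Krt20 and, in db/db mice, Havcr1 had few counts, so modest differences in them were not detectable. The log2 fold changes against Ctrl are relative to the typical gene, which moved with the scaling, and the mitochondrial share differed between the same groups. The labels and the series description name different tissue, kidney and renal cortex, and the segments each sample held are known here from marker genes alone.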
